A study of Mus musculus with 14 samples.

Results

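The 37 genes of the mouse mitochondrial genome were examined in RNA sequencing of the intervertebral disc (IVD) from 2 mouse models of type 2 diabetes. Members were taken by name, as every gene of the gene count table whose symbol begins with mt-, and they made up 37 of 55487 genes. They comprised 13 protein genes, 2 rRNA genes and 22 tRNA genes, all on chromosome M of GRCm38. The 14 libraries came from 14 male mice, with 5 caudal discs of each mouse pooled into 1 sample. The db/db group (n = 3) carried the mutated leptin receptor on both chromosomes, and its db/+ controls (n = 3) were heterozygous, both at 12 weeks of age. The STZ-HFD group (n = 4) was C57BL/6J mice put on a high-fat diet at 12 weeks of age, given a single 100 mg/kg dose of streptozocin, which kills insulin-producing cells, after 4 to 6 weeks, and kept on the diet for 12 weeks more. The Con+Veh group (n = 4) was C57BL/6J mice on chow that received vehicle and is called wild type in the labels. The fat content of the high-fat diet was given as 80% of calories in the labels and 60% in the methods. The models differed in genotype, age and schedule, so cohort and model cannot be told apart in any comparison between them.

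The mitochondrial genome is a small circular chromosome present in many copies per cell. It is transcribed from both strands as long precursors in which tRNAs punctuate the other genes, and cutting at the tRNAs releases the separate mRNAs and rRNAs. Its protein genes encode core subunits of respiratory complexes I, III, IV and V, its rRNAs build the mitochondrial ribosome, and all other components are made from nuclear genes and imported. The disc is a poorly vascularized tissue whose cells rely largely on glycolysis, whereas skeletal muscle is rich in mitochondria. In bulk samples such as these, a change in the number of cells of a type and a change in RNA per cell cannot be told apart.

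Total counts ran from 16076908 to 58943169 per library, of which 8945906 to 35031712 lay outside rRNA genes. A single nuclear rRNA gene model, CT010467.1, held 21.6% to 48.2% of a library's counts. Shares below therefore use the counts outside all 356 genes annotated as nuclear or mitochondrial rRNA as the denominator. The 10 disc and cartilage markers, Acan and Col2a1 among them, were all detected and summed to 26164 to 76346 CPM, which are counts scaled to a common library total, in the db cohort, to 5067 to 18838 CPM in Con+Veh and to 1830 to 3750 CPM in STZ-HFD. The 12 skeletal muscle markers were also all detected and summed to 4793 to 9876 CPM in db/+, 3055 to 5094 CPM in db/db, 8153 to 11170 CPM in Con+Veh and 7817 to 23190 CPM in STZ-HFD. The 8 adipocyte markers summed to 208 to 424 CPM in db/+, 359 to 651 CPM in db/db, 391 to 938 CPM in Con+Veh and 838 to 1029 CPM in STZ-HFD. The other marker lists summed to 25.6 to 97.4 CPM (6 erythroid genes), 95.2 to 291 CPM (8 macrophage genes), 78.6 to 1747 CPM (5 osteoblast genes) and 0.605 to 17.1 CPM (5 neutrophil genes) over the 14 libraries, and no marker was at 0 in all of them.

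Part of the mitochondrial genome has a near-perfect nuclear copy. Whether it affects the values of the genes it covers was not tested beyond a fit with the copies' counts added. On chromosome 1, a block at chr1:24611535-24616197 of GRCm38 holds 7 annotated pseudogenes that match their mitochondrial gene at 99% identity or more, and it corresponds to chrM:6390-11042. The copies were Gm29216 of mt-Co1, Gm28661 of mt-Co2, Gm10925 of mt-Atp6, Gm28437 of mt-Co3, Gm28438 of mt-Nd3, Gm10222 of mt-Nd4l and Gm28439 of mt-Nd4. Of these, 5 showed 0 differences over the aligned bases, among them all 681 aligned bases of mt-Co2 and 783 of mt-Co3. Gm29216 matched 483 of the 1545 bases of mt-Co1 with 1 difference (A1066T, counted from the first base of mt-Co1). Gm28438 matched 345 of the 348 bases of mt-Nd3 with 1 difference (T3C, counted from the first base of mt-Nd3). The windows around those differences are shown because they hold the only bases at which the aligned stretches of gene and copy differ, with the differing base in capitals. They lie at chrM:6390-6423 for mt-Co1 and chrM:9459-9491 for mt-Nd3 and were read from GENCODE transcripts of GRCm38. Copies elsewhere in the nuclear genome reached at most 97.6% identity (Gm13340 of mt-Co1).
mt-Co1: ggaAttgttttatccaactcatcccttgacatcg
Gm29216: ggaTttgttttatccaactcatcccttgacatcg
mt-Nd3: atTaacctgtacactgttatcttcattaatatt
Gm28438: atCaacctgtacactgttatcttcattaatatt

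Of the tRNA genes, 4 held most counts, and their sequences are shown 5′ to 3′ with the anticodon in capitals. They are mt-Tm, the methionine tRNA at chrM:3845-3913 on the plus strand, mt-Tv, the valine tRNA at chrM:1025-1093 on the plus strand, mt-Ts1, a serine tRNA at chrM:6870-6938 on the minus strand, and mt-Tp, the proline tRNA at chrM:15356-15422 on the minus strand.
mt-Tm: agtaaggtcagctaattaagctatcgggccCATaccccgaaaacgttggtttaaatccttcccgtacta
mt-Tv: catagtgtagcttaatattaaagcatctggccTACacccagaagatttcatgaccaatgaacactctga
mt-Ts1: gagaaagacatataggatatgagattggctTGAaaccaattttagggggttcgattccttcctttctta
mt-Tp: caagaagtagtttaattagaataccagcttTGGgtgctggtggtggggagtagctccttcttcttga

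The protein genes took a higher share of counts in db/db than in db/+. In db/+ the 13 genes held 2.00, 1.26 and 1.28 counts per 100 counts outside rRNA in replicates 1 to 3, a mean of 1.51 ± 0.43 (SD, n = 3). In db/db they held 3.59, 2.77 and 2.57, a mean of 2.98 ± 0.54 (SD, n = 3). Every db/db library exceeded every db/+ library, and the geometric means differed 1.99-fold. In the STZ-HFD cohort the groups overlapped widely. Con+Veh libraries held 3.86, 7.86, 3.18 and 2.34 counts per 100, a mean of 4.31 ± 2.45 (SD, n = 4). STZ-HFD libraries held 4.35, 1.90, 3.90 and 10.2 counts per 100, a mean of 5.09 ± 3.57 (SD, n = 4). The highest Con+Veh library, replicate 2, and the highest STZ-HFD library, replicate 4, are the 2 libraries whose deposited names end in RIP, an ending the labels do not explain. Without those libraries the log2 difference between the group means went from 0.14 to 0.06. The within-group SD was 0.88 with all libraries kept, those 2 among them.

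The 2 rRNA genes held more counts than the protein genes in every library, and their share was also higher in db/db than in db/+. Their counts came to 8.05, 5.84 and 5.60 per 100 counts outside rRNA in db/+ and to 13.5, 8.89 and 10.1 in db/db. The db groups again did not overlap, with a mean of 6.50 ± 1.35 in db/+ and 10.8 ± 2.38 in db/db (SD, n = 3). Con+Veh libraries held 26.3, 54.9, 20.8 and 12.9 counts per 100, and STZ-HFD libraries held 17.6, 10.9, 22.2 and 50.5, with means of 28.7 ± 18.3 and 25.3 ± 17.4 (SD, n = 4). The STZ-HFD and Con+Veh groups overlapped, and the highest library of each was again the one with the RIP ending. Counting error was small beside this spread, since 95% Wilson intervals, taken on shares of all counts, reached at most 0.359% of the protein gene share and 0.149% of the rRNA share to either side. The mitochondrial rRNA counts are not part of the counts outside rRNA, so their value per 100 is a ratio and has no such interval. These intervals cover counting error only. The summed muscle markers were lower and the adipocyte markers higher in db/db than in db/+, as given above, and their part in these shares was not tested beyond the covariate fits below.

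**Figure D1:**
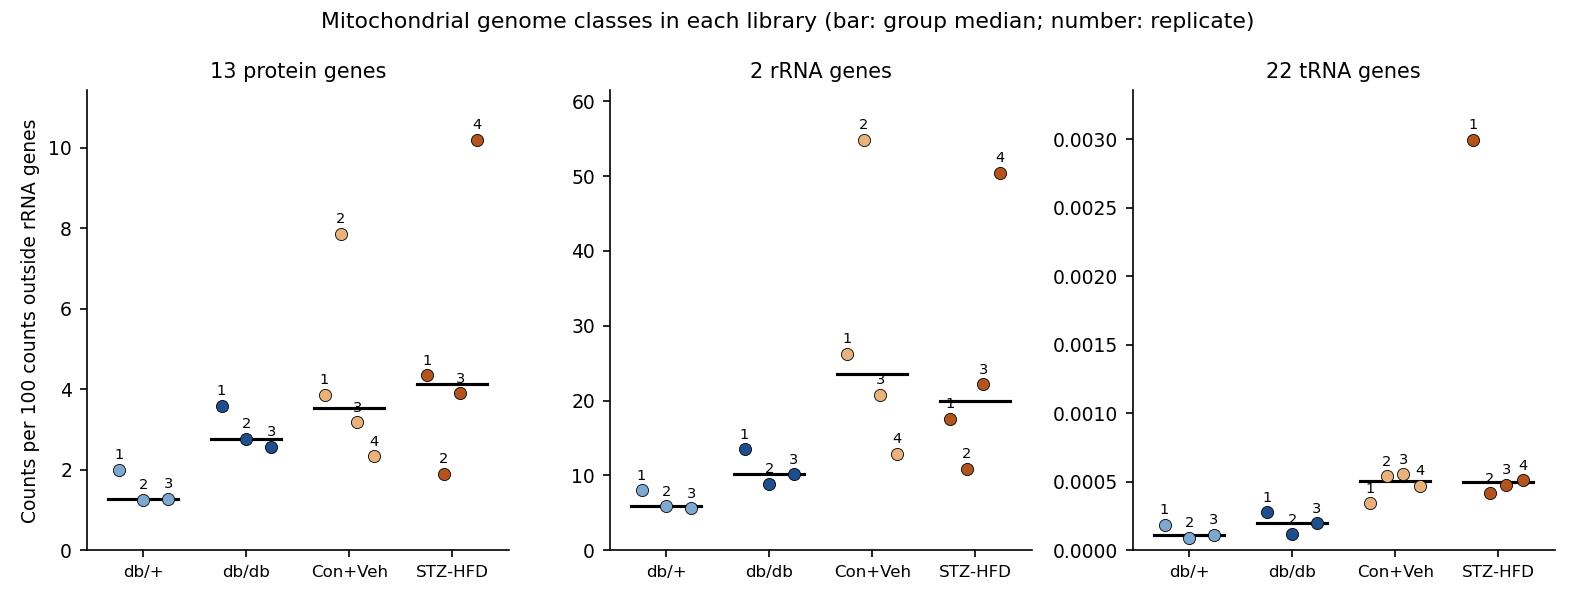
Counts on the 13 protein genes, 2 rRNA genes and 22 tRNA genes of the mitochondrial genome per 100 counts outside rRNA genes (vertical axes, each from 0) in the 14 libraries by group, with points numbered by replicate and bars at the group median. Every db/db point lies above every db/+ point for protein genes (lowest 2.57, highest 2.00) and for rRNA genes (lowest 8.89, highest 8.05), while Con+Veh and STZ-HFD overlap in all 3 classes.

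Individual genes were compared with limma's voomWithQualityWeights across all 14 libraries, with Benjamini-Hochberg adjustment over 16915 genes. A call required an adjusted p below 0.05 together with a log2 fold change of 1 or more in size. The mice were separate animals, so the spread is between mice. Of the 37 genes, 14 passed the filter of 1 CPM in at least 3 libraries, namely 12 protein genes, without mt-Atp8, and both rRNAs. No tRNA gene passed. In db/db against db/+, none of the 14 was called higher and none lower, where 1.23% of all genes tested were called higher and 0.432% lower. At an unadjusted p under 0.05 limma found 1 of the 14, where 21.1% of all genes tested passed, and neither edgeR's quasi-likelihood test nor DESeq2 called any. Over all genes edgeR called 0 in this comparison, and DESeq2 called 160 higher and 52 lower. All 14 fitted log2 fold changes were above 0, as were 47.3% of all genes tested, and their median was 0.74 against -0.04 over all genes. Neighbouring genes are cut from shared precursors, so the 14 values are not separate observations.

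The complex IV genes, which encode the catalytic core of cytochrome c oxidase, had the highest fitted values in db/db. mt-Co2 (ENSMUSG00000064354, chrM:7013-7696, plus strand), the subunit that takes electrons from cytochrome c, was at 343, 157 and 182 CPM in db/+ and at 728, 487 and 511 CPM in db/db. Every db/db library was above every db/+ library. The fitted log2 fold change was 1.40 ± 0.45 (SE; 95% interval 0.46 to 2.34) with a limma adjusted p of 0.0970, so it was not called. mt-Co2 passed the threshold when each model was fitted alone (adjusted p = 0.0470) and when the muscle marker score was a covariate (adjusted p = 0.0337), and stood at 0.77 (adjusted p = 0.783) with the adipocyte marker score as a covariate. With that covariate limma called 0 of all 16915 genes in db/db, with 1368 under an unadjusted p of 0.05, against 208 higher and 73 lower calls without it.

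mt-Co3 (ENSMUSG00000064358, chrM:8607-9390), a core subunit of the same complex, was at 187, 110 and 92.1 CPM in db/+ and at 362, 195 and 284 CPM in db/db. mt-Co1 (ENSMUSG00000064351, chrM:5328-6872), which holds the oxygen-reducing centre, was at 3100.5, 2021 and 1825 CPM in db/+ and at 5274, 3624 and 4541 CPM in db/db. Neither gene's groups overlapped, and the fitted values were 1.11 ± 0.53 for mt-Co3 and 0.96 ± 0.52 for mt-Co1 (SE), with limma adjusted p of 0.240 and 0.300. In CPM, 5 of the 14 genes had non-overlapping db groups with db/db higher, beside 14.1% of all genes tested. The other 2 were mt-Nd5, the complex I subunit at the far end of the proton-pumping arm, and mt-Cytb, the cytochrome b of complex III and the only complex III subunit encoded in this genome. mt-Nd5 (ENSMUSG00000064367, chrM:11742-13565) was at 2197 to 3268 CPM in db/+ and 3945 to 4722 CPM in db/db, with a fitted log2 difference of 0.75 ± 0.39 (SE) and a limma adjusted p of 0.274. mt-Cytb (ENSMUSG00000064370, chrM:14145-15288) was at 897 to 1690 CPM in db/+ and 1753 to 2678 CPM in db/db, with 0.87 ± 0.44 (SE) and an adjusted p of 0.264.

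The other complex I genes had fitted db/db values from 0.01 for mt-Nd3 to 0.75 for mt-Nd4, with overlapping groups. mt-Nd4, which pumps protons in the membrane arm, was at 569 to 1012 CPM in db/+ and at 995 to 1601 CPM in db/db. mt-Nd1, which lies at the junction of the membrane arm with the arm that takes up electrons, was at 974, 482 and 429 CPM in db/+ and at 1345, 708 and 938 CPM in db/db. In both genes db/+ replicate 1 was the only control library that reached the db/db range. mt-Nd4l, a small subunit whose gene overlaps the start of mt-Nd4, was at 0.912 to 2.02 CPM in db/+ and 1.47 to 2.29 CPM in db/db. mt-Nd3 was counted 11 to 77 times per library and its interval ran from -1.38 to 1.39, so the fit left differences of either direction possible. mt-Atp6, the proton channel subunit of ATP synthase, was at 54.1, 25.2 and 25.0 CPM in db/+ and at 65.5, 35.0 and 51.6 CPM in db/db, with a fitted value of 0.59 ± 0.38 (SE). mt-Atp8, the small partner of mt-Atp6 whose frame overlaps it, was not tested. Its counts were 18, 12 and 8 in db/+ and 30, 32 and 30 in db/db.

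The rRNA genes were the most abundant members. mt-Rnr1 (ENSMUSG00000064337), the small-subunit rRNA, was at 27944, 19565 and 17406 CPM in db/+ and at 37819, 21901 and 30376 CPM in db/db. mt-Rnr2 (ENSMUSG00000064339), the large-subunit rRNA, was at 17910, 12308 and 11705 CPM in db/+ and at 28825, 17734 and 25054 CPM in db/db. The groups of both overlapped through db/+ replicate 1 and db/db replicate 2, and limma gave 0.45 ± 0.50 and 0.76 ± 0.43 (SE) with adjusted p of 0.637 and 0.320. In the other cohort mt-Rnr1 ran from 48667 to 155360 CPM in Con+Veh and from 27996 to 165880 CPM in STZ-HFD, and mt-Rnr2 from 38886 to 110340 CPM and from 31589 to 117370 CPM. Their fitted values there were 0.21 ± 0.43 and 0.49 ± 0.38 (SE), with adjusted p of 0.850 and 0.547.

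In STZ-HFD against Con+Veh, none of the 14 genes was called higher or lower, where 1.30% of all genes tested were called higher and 1.31% lower. limma found 2 of the 14 at an unadjusted p under 0.05, where 17.9% of all genes tested passed. Neither edgeR, which called 6 higher and 23 lower over all genes, nor DESeq2, with 123 and 154, called any of the 14. None of the 14 had non-overlapping groups, against 1.97% of all genes higher and 2.77% lower. The fitted log2 fold change was above 0 for 13 of 14 genes, with a median of 0.48 against -0.04 over all genes, where 47.2% of all genes tested were above 0. That direction depended on the library weights and on single libraries. Without the weights 6 of 14 were above 0 (median -0.10), and edgeR and DESeq2 each gave 7 of 14. Without STZ-HFD replicate 4 the count was 4 of 13 (median -0.09). The weights ran from 0.27 for Con+Veh replicate 1 to 3.05 for Con+Veh replicate 3.

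The 2 genes under 0.05 in STZ-HFD were complex I genes. mt-Nd2 (ENSMUSG00000064345, chrM:3914-4951), a subunit of the proton-pumping arm, was at 1466, 1827, 1093 and 904 CPM in Con+Veh and at 1991, 966, 1847 and 4095 CPM in STZ-HFD. Its fitted log2 fold change was 1.05 ± 0.36 (SE), with a limma adjusted p of 0.118. mt-Nd6 (ENSMUSG00000064368, chrM:13552-14070), the one protein gene on the minus strand, was at 169, 253, 170 and 146 CPM in Con+Veh and at 257, 109 and 392 CPM in STZ-HFD replicates 1 to 3 and 496 CPM in replicate 4. Its fitted value was 0.99 ± 0.32 (SE), with a limma adjusted p of 0.102. Its last bases overlap mt-Nd5 on the other strand. The library kit does not mark strand, so none of the mt-Nd6 counts can be told apart from counts of plus-strand precursors. Replicate 2 was the lowest STZ-HFD library for both genes, and without it both were called, at 1.42 for mt-Nd2 and 1.36 for mt-Nd6 with limma adjusted p of 0.0325 and 0.0135. Without replicate 4, the highest, they were at 0.46 and 0.49 with limma adjusted p of 0.595 and 0.582. The complex IV genes were at 0.37 for both mt-Co1 and mt-Co2 and 0.46 for mt-Co3, with limma adjusted p from 0.644 to 0.707. mt-Co1 was at 5689, 11693, 5053 and 3771 CPM in Con+Veh and at 1561, 2492, 6373 and 14027 CPM in STZ-HFD, so its lowest and highest libraries were both STZ-HFD.

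The difference between the models was tested for each gene as the contrast of the 2 contrasts. No mitochondrial gene was called, where 0.952% of all genes tested were called higher and 0.816% lower, and limma found none at an unadjusted p under 0.05, where 17.3% of all genes passed. edgeR and DESeq2 each called none. Of the 14 differences, taken as STZ-HFD minus db/db, 3 were above 0, beside 48.5% over all genes tested. The lowest adjusted p was 0.392 for mt-Co2, at a log2 difference of -1.03.

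**Figure D2:**
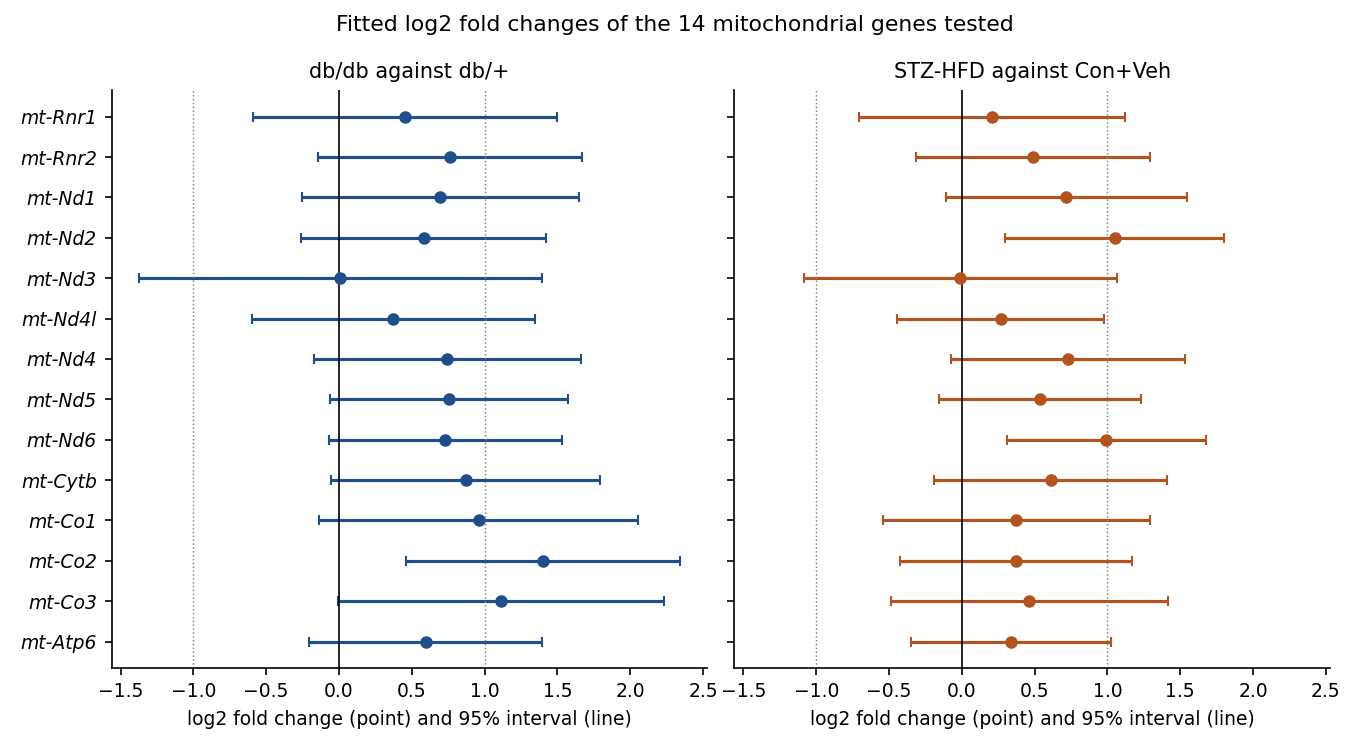
Fitted log2 fold changes (horizontal axis) of the 2 rRNA genes and 12 protein genes tested, for db/db against db/+ (left) and STZ-HFD against Con+Veh (right), with points for the limma estimate, lines for its 95% interval and dotted lines at a log2 fold change of 1 in either direction. The interval of mt-Co2 in db/db (0.46 to 2.34) and those of mt-Nd2 (0.30 to 1.80) and mt-Nd6 (0.31 to 1.68) in STZ-HFD lie above 0, and every other interval includes 0.

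Markers of several cell types also differed between the groups, in directions that varied by marker list and by model. Over all genes tested, limma called 1.23% higher and 0.432% lower in db/db, and 1.30% and 1.31% in STZ-HFD. In db/db 21.1% of all genes had an unadjusted p under 0.05. In db/db all 12 muscle markers had fitted values below 0, with 2 called lower and a median log2 fold change of -1.10, and with their mean as a covariate all 14 mitochondrial values remained above 0 at a median of 1.06, with mt-Co2 (1.73) and mt-Co3 (1.77) called. That covariate raised the calls over all genes in db/db from 208 higher and 73 lower to 662 and 540. In STZ-HFD all 12 were above 0, with 4 called higher and a median of 1.09, and with the covariate 8 of 14 values were above 0 at a median of 0.06. Of the 8 adipocyte markers 4 were called higher in db/db, and with their mean as a covariate 10 of 14 db/db values were above 0 at a median of 0.09. The adipocyte markers summed to 838 to 1029 CPM in STZ-HFD, against an overlapping 391 to 938 CPM in Con+Veh. With that covariate 9 of 14 STZ-HFD values were above 0 at a median of 0.16, and 0 mitochondrial genes were called higher, as without it. Disc and cartilage markers had a median of -0.68 in db/db, with 0 of 10 called by limma and 2 of 10 under an unadjusted p of 0.05, and of -1.52 in STZ-HFD, with 6 of 10 called lower. In STZ-HFD 4 of 8 macrophage markers (median -1.15) and 2 of 5 osteoblast markers (median -1.14) were called lower, none of either list was called in db/db (medians 0.22 and -0.90, with 1 and 2 at an unadjusted p under 0.05 by limma), and limma called none of the 5 erythroid and 2 neutrophil markers it tested in either comparison. Base composition also moved with the db comparison. The 14 genes had 33.0% to 41.1% GC against a median of 49.1% over all genes tested, and 1785 other genes in that GC range had a median log2 fold change of 0.37 for db/db and 0.04 for STZ-HFD. With each library's GC trend removed, the mitochondrial median was 0.35 in both comparisons, with 13 of 14 values above 0 in each. Their part in the mitochondrial fold changes was not tested beyond these fits.

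Some ratios among the mitochondrial genes also did not overlap between the db groups. Of these only mt-Rnr2 to mt-Rnr1 was tested, with a test that could not pass 0.05 at 3 against 3. The ratio of mt-Rnr2, the large-subunit rRNA at chrM:1094-2675, to mt-Rnr1, the small-subunit rRNA at chrM:70-1024, was 0.641, 0.629 and 0.672 in db/+ and 0.762, 0.810 and 0.825 in db/db. The groups did not overlap, and the mean log2 ratio differed by 0.30 against a within-group SD of 0.05. A two-sided exact permutation test gave p = 0.10, the smallest that 3 against 3 can give (adjusted p = 0.143 over the 2 comparisons). In Con+Veh the ratio was 0.745, 0.710, 0.730 and 0.799, and in STZ-HFD it was 1.30, 0.866, 1.11 and 0.708. STZ-HFD replicate 4 lay below all Con+Veh libraries and replicates 1 to 3 lay above them, with a mean log2 difference of 0.38 and an exact permutation p of 0.143, where 4 against 4 can reach 0.0286. With single libraries left out the difference ran from 0.24 to 0.53 and the exact permutation p from 0.0286, without replicate 4, to 0.257.

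Complex IV genes stood higher in summed counts against complex I genes in db/db, and no ratio in this paragraph was tested. The summed counts of the 3 complex IV genes came to 0.601, 0.628 and 0.587 of those of the 7 complex I genes in db/+ and to 0.739, 0.690 and 0.785 in db/db, without overlap. In the transcript table the same ratio was 1.62 to 1.88 in db/+ and 1.99 to 2.19 in db/db, again without overlap. The ratio of mt-Co1 to mt-Nd5, the most counted gene of each complex, overlapped, with the highest db/+ value (0.949) above the lowest db/db value (0.919). In STZ-HFD the summed ratio was 0.183, 0.424, 0.541 and 0.528 against 0.534, 0.805, 0.569 and 0.527 in Con+Veh, and the groups overlapped. Counts on the rRNA genes came to 4.02 to 4.65 times those on the protein genes in db/+ and to 3.21 to 3.94 times in db/db, which did not overlap. They came to 5.52 to 6.98 times in Con+Veh and 4.04 to 5.71 times in STZ-HFD.

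**Figure D3:**
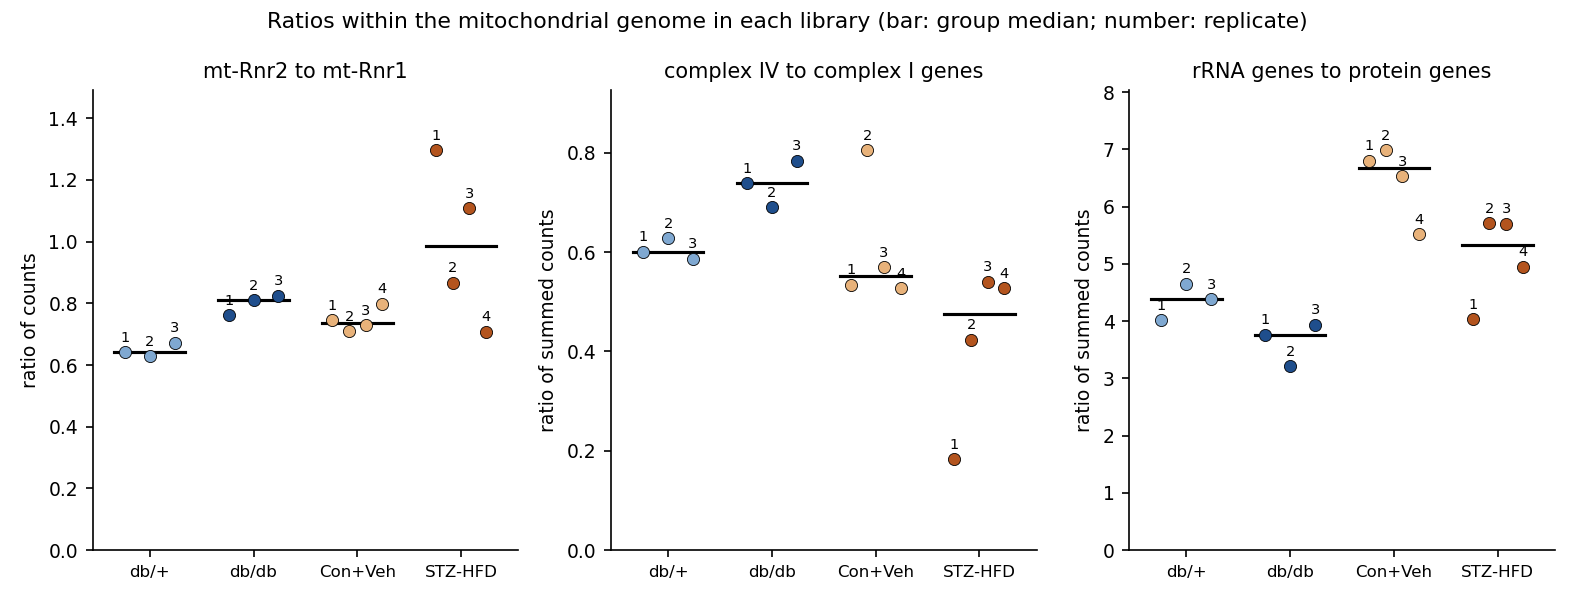
Ratios of counts within the mitochondrial genome in the 14 libraries by group (vertical axes from 0), with points numbered by replicate and bars at the group median. The db/db points lie above the db/+ points for mt-Rnr2 to mt-Rnr1 (lowest 0.762, highest 0.672) and for complex IV to complex I genes (lowest 0.690, highest 0.628) and below them for rRNA to protein genes (highest 3.94, lowest 4.02), while STZ-HFD replicate 1 stands at 1.30, 0.183 and 4.04.

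As shares of the mitochondrial protein gene counts, 4 of 13 genes did not overlap between the db groups, with mt-Co2 higher and mt-Nd2, mt-Nd3 and mt-Nd4l lower in db/db, and 2 of 13, mt-Nd2 and mt-Atp8, were higher without overlap in STZ-HFD. For CPM, 14.1% of all genes tested were higher and 11.7% lower without overlap in db/db, and 1.97% were higher without overlap in STZ-HFD. The shares of mt-Nd3, mt-Nd4l and mt-Atp8 rest on 6 to 336 counts per library. mt-Co2 made up 2.29% to 3.01% in db/+ and 3.63% to 4.11% in db/db, while mt-Nd2 made up 4.39% to 5.64% in db/+ and 3.75% to 4.31% in db/db, both without overlap. mt-Nd2 went the other way in STZ-HFD, at 7.06% to 12.5% against 4.80% to 6.18% in Con+Veh, again without overlap. The 2 genes with most counts, mt-Co1 and mt-Nd5, held 27.2% to 32.2% and 26.7% to 33.0% across both db groups. In STZ-HFD replicate 1 mt-Co1 held 9.80% of the protein gene counts and complex I genes together 70.1%, against 46.5% to 59.3% in the other libraries.

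Levels of the protein genes, compared as CPM outside rRNA divided by gene length in kilobases, depended on which table was read. In the gene table mt-Co1 led with a median of 5287 over the 14 libraries (range 2273 to 16181), followed by mt-Nd5 at 4909 (2220 to 14198) and mt-Cytb at 3841 (1436 to 14457). These neighbours overlapped widely, and mt-Co1 ranked anywhere from 1 to 6 by library. In STZ-HFD the group medians put mt-Nd5 (7251) and mt-Cytb (5796) above mt-Co1 (4455). mt-Co3 was at 600 and ranked 8 of 13, mt-Atp6 at 170 and ranked 10, mt-Nd4l at 20.0, mt-Atp8 at 4.43 and mt-Nd3 at 2.95. In the transcript table, in which reads that fit several transcripts are shared out among them, mt-Co3 led with a median of 17176 (6044 to 55336), followed by mt-Co2 at 13629, mt-Co1 at 10841 and mt-Atp6 at 7714. mt-Atp8 and mt-Atp6 are translated from 1 shared mRNA.

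Against the ratio of the tables in nuclear genes, the genes inside the block that the nuclear copy covers stood higher in the transcript table. For the 5 genes with no such copy that lie outside the block, mt-Nd1, mt-Nd2, mt-Nd5, mt-Nd6 and mt-Cytb, the transcript table held 0.274 to 0.322 of the gene table's count (medians over libraries). Those values lay within the 5% to 95% range of 13587 nuclear protein genes, 0.0139 to 0.464 with a median of 0.278. For the genes whose copy spans nearly the whole gene the ratio was 2.53 for mt-Co2, 6.64 for mt-Nd3, 6.81 for mt-Co3, 8.23 for mt-Nd4l and 9.37 for mt-Atp6. For mt-Co1 and mt-Nd4, whose copies span part of the gene, it was 0.546 and 0.563. mt-Atp8, which lies inside the block but has no annotated copy of its own, stood at 3.35. The copies held their own counts in the gene table, with a ratio of copy to gene, in counts summed over libraries, of 0.0615 for Gm28439 to mt-Nd4, 0.230 for Gm29216 to mt-Co1, 0.350 for Gm28437 to mt-Co3, 0.490 for Gm28438 to mt-Nd3, 0.818 for Gm28661 to mt-Co2, 1.32 for Gm10925 to mt-Atp6 and 2.02 for Gm10222 to mt-Nd4l. Adding the copies' counts to their genes left the db/db median at 0.74 and mt-Co2 uncalled.

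**Figure D4:**
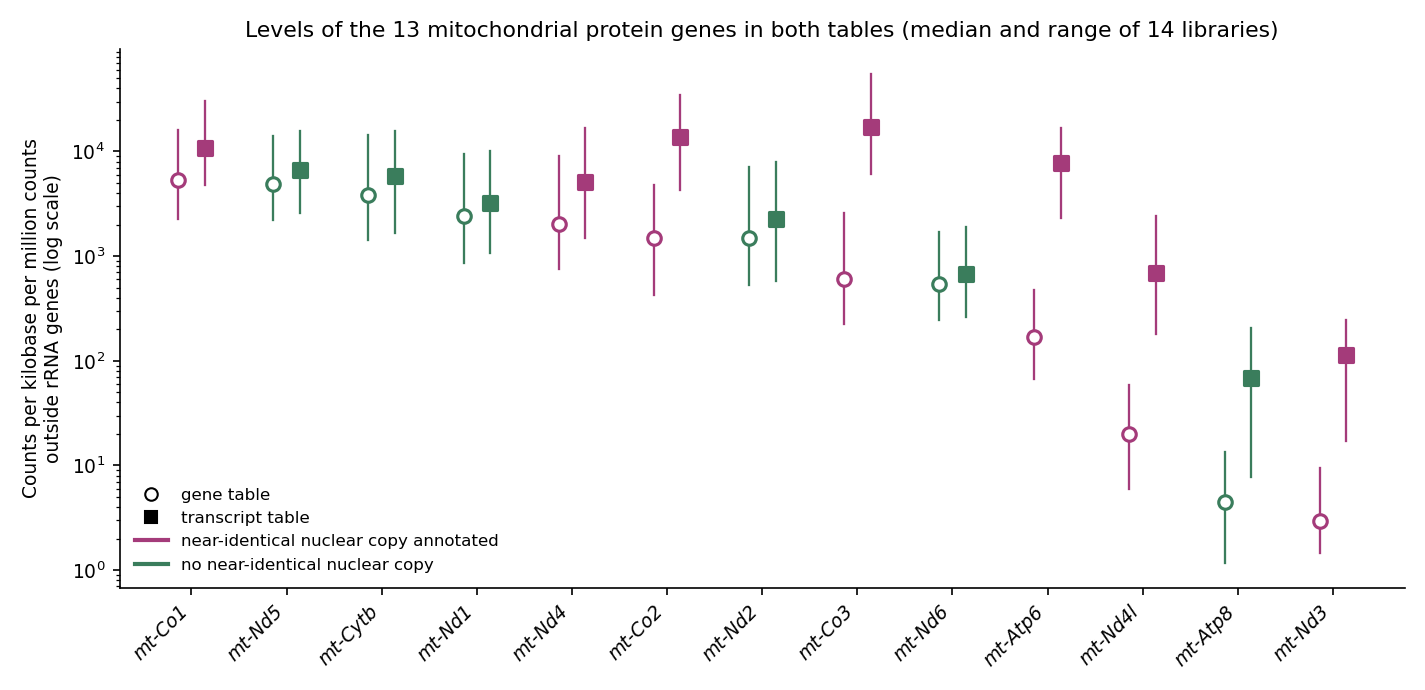
CPM outside rRNA genes per kilobase of gene length (logarithmic vertical axis) of the 13 mitochondrial protein genes in the gene table (open circles) and the transcript table (filled squares), as the median of 14 libraries with lines for the range, coloured by whether a nuclear copy of at least 99% identity is annotated. The tables lie close together for genes outside the block that the nuclear copy covers, such as mt-Nd5 at 4909 and 6698, and farther apart for genes inside it, such as mt-Co3 at 600 and 17176 and mt-Atp8, which has no annotated copy, at 4.43 and 68.7, while mt-Co1 (5287 and 10841) and mt-Nd4 (2018 and 5105), which lie partly inside, differ less.

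The tRNA genes were barely counted. All 22 together held 1193 counts over 14 libraries, or 0.0000919 to 0.000554 counts per 100 counts outside rRNA in 13 libraries and 0.00300 in STZ-HFD replicate 1. The db groups overlapped, with 52, 29 and 38 counts in db/+ and 88, 36 and 69 in db/db. Of the 22 genes, 8 had under 10 counts in all, and mt-Tf, the phenylalanine tRNA, had none in any library, where a count of 0 allows up to 0.0856 to 0.335 CPM outside rRNA by library. The 4 tRNA genes printed above held 72.2% of the counts, with 320 on mt-Tm, 234 on mt-Tp, 166 on mt-Ts1 and 141 on mt-Tv, and only mt-Tp and mt-Ts1 were counted in every library. The 8 tRNA genes on the minus strand held 47.4% of the counts, but without strand in the reads these cannot be told apart from counts of plus-strand precursors.

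STZ-HFD replicate 1 alone held 200 of the 320 counts on mt-Tm (62.5%), against 7 to 9 in the other STZ-HFD libraries and 8 to 30 in Con+Veh. mt-Tm ends at chrM:3913 and mt-Nd2 begins at the next base, and this library also had the highest mt-Nd2 share of protein gene counts (12.5%). It was the shallowest library, at 16076908 counts, and its deposited name ends in NT, an ending the labels do not explain. Without it the log2 difference of the tRNA class between STZ-HFD and Con+Veh went from 0.67 to -0.0047. Without passing the filter, mt-Te, the glutamate tRNA, was the one tRNA gene whose CPM did not overlap between these groups, at 2 to 4 counts in Con+Veh and 4 to 17 in STZ-HFD, beside 1.97% of all genes tested that were higher without overlap. In db/db the CPM of mt-Tl1 (0 counts in db/+ and 1 to 2 in db/db) and mt-Ts2 (0 to 2 and 3 to 7) were higher without overlap, 2 of 22 tRNA genes beside 14.1% of all genes tested. mt-Tv was uneven within groups too, with 34 and 21 counts in Con+Veh replicates 3 and 4, 38 and 24 in STZ-HFD replicates 2 and 3, and 0 to 6 in every other library.

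**Figure D5:**
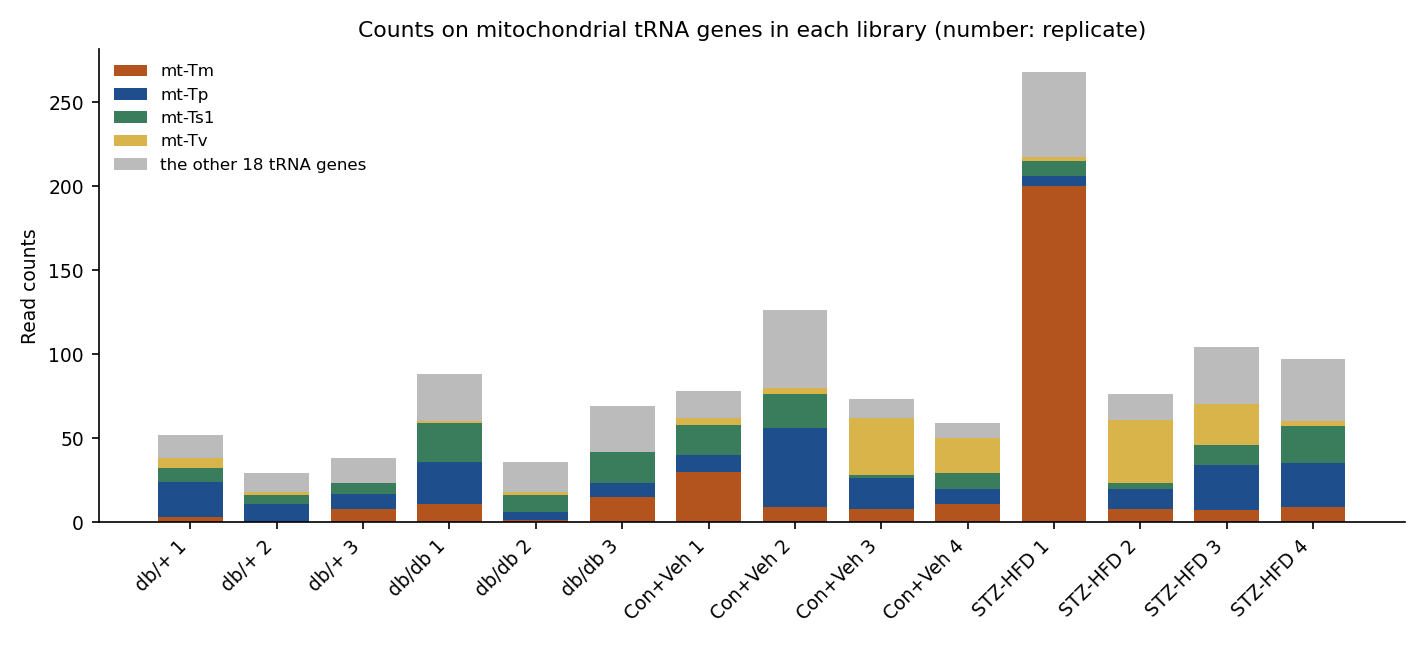
Read counts on the 22 mitochondrial tRNA genes (vertical axis) in each of the 14 libraries, stacked by gene with mt-Tm, mt-Tp, mt-Ts1 and mt-Tv apart from the other 18. The bar of STZ-HFD replicate 1 reaches 268 counts, 200 of them on mt-Tm, while the other libraries hold 29 to 126 counts.

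Nuclear genes that transcribe, process and stabilize mitochondrial RNA were read from a list of 50, of which 47 were tested. In db/db limma called 0 of 47, where 1.23% of all genes were called higher and 0.432% lower. At an unadjusted p under 0.05 limma found 17 of the 47, beside 21.1% of all genes. None was called by edgeR or DESeq2, and the median log2 fold change was 0.18. Tfam, which packages mitochondrial DNA and starts its transcription, was at 2.86 ± 0.61 CPM in db/+ and 5.37 ± 0.34 CPM in db/db (SD, n = 3), without overlap, with a fitted 0.90 ± 0.28 (SE; limma adjusted p = 0.0944). Elac2, which cuts the 3′ end of tRNAs out of the precursor, was at 12.7 ± 0.79 CPM in db/+ and 7.96 ± 0.75 CPM in db/db (SD, n = 3), also without overlap, with -0.69 ± 0.22 (SE; limma adjusted p = 0.0982). Polrmt, the RNA polymerase, was at -0.25 ± 0.34 and Tfb2m, its initiation partner, at 0.37 ± 0.32 (SE).

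In STZ-HFD limma called 1 of the 47 higher and none lower, where 1.30% of all genes were called higher and 1.31% lower. At an unadjusted p under 0.05 limma found 2, beside 17.9% of all genes, and the list median was 0.22. The gene called was Lrpprc, which stabilizes mitochondrial mRNAs, at 15.2 ± 9.15 CPM in Con+Veh and 27.5 ± 8.76 CPM in STZ-HFD (SD, n = 4), with a fitted 1.33 ± 0.27 (SE; limma adjusted p = 0.0155). edgeR and DESeq2 did not call it, at 0.85 and 0.86, and neither did limma without Con+Veh replicate 3 or 4 or STZ-HFD replicate 3 or 4 (adjusted p of up to 0.325). Its fitted value stayed between 1.05 and 1.52 with any single library left out. Its partner Slirp was under the filter, at 0 to 0.711 CPM. Polrmt, Tfam, Tfb2m and Elac2 were at 0.11, 0.36, -0.06 and 0.29 in STZ-HFD, with limma adjusted p from 0.496 to 0.945.

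The partners of the mitochondrial proteins are the nuclear-encoded subunits of complexes I, III, IV and V. Of 84 such genes 80 were tested, and in db/db limma called 3 higher and 0 lower, where 1.23% and 0.432% of all genes were called, with a median of 0.27. The 3 were Cox7a2l (log2 fold change 1.40), Cox6c (1.33) and Atp5l (1.64), named after their values were seen. The list was taken by symbol, and whether each gene in it, Cox7a2l among them, encodes a structural subunit was not checked. The db/db count ran from 0 to 18 over other settings and from 0 to 10 with single libraries left out. Its median ran from -0.19 to 0.78 over other settings. In STZ-HFD 14 were called higher and 1 lower, Cox4i2, where 1.30% of all genes were called higher and 1.31% lower, with a median of 0.80. DESeq2 called 5 higher and edgeR 0, and with the muscle marker score as a covariate 0 were called higher, where 17 over all genes were. Cox7a1 and Cox8b, subunit forms of heart and skeletal muscle, were among the 14, at 71.0 ± 24.4 and 29.1 ± 11.7 CPM in Con+Veh and 164 ± 28.9 and 85.7 ± 43.7 CPM in STZ-HFD (SD, n = 4). Cox6a2, another such form, was not called in STZ-HFD, at 0.66 ± 0.31 (SE; limma adjusted p = 0.272). Complex II, which has no mitochondrially encoded subunit, had 4 genes, of which limma called 0 in db/db and 1, Sdhc, in STZ-HFD.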

How the data were processed

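RNA of 5 pooled caudal discs per mouse was sequenced as 1 library for each of 14 mice, from 1 to 50 ng of RNA amplified with a kit that does not mark strand. The authors aligned reads with STAR to GRCm38 with Ensembl annotation and deposited raw gene counts from featureCounts. The treatment of reads that align to several places is not given in the sources used here. The authors also deposited estimated counts per transcript from Salmon, which were summed by gene and rounded for the alternative fit. Gene lines repeating an identifier (287 of 55774) held the same values and were kept once.

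Genes above 1 CPM in at least 3 libraries were fitted with limma 3.58.1 (voomWithQualityWeights, TMM from edgeR 4.0.16, R 4.3.3), in 1 design over the 4 groups. CPM values are TMM-normalised. Adjusted p-values in the text are limma's, Benjamini-Hochberg over all genes tested. The same script was tested on simulated data. Single ratios were tested by two-sided exact permutation. Totals ran from 16076908 to 58943169 counts, which puts 3 counts at 0.0509 to 0.187 CPM before TMM scaling (factors 0.696 to 1.61). Replicate pairs differed beyond sampling noise, with a chi-square of 54.8 to 578 per degree of freedom over 18 pairs. Nuclear copies were found with BLAST 2.17.0 over annotated transcripts, from 85% identity and 100 bases up. Named genes were the protein and rRNA members, the tRNA genes with most counts per base and the copies. The tRNA gene mt-Tf was named for having no counts, and mt-Te, mt-Tl1 and mt-Ts2 because their groups did not overlap. Of the machinery list, those called were named plus 6 well-known genes (Polrmt, Tfam, Tfb2m, Lrpprc, Slirp and Elac2). Of the nuclear subunits, some genes that were called were named, and Cox6a2, which was not. Acan and Col2a1 were named as examples of disc and cartilage markers. The members and lists were chosen with earlier results of these data known. Alternatives were edgeR, DESeq2 1.42.0, other scalings, filters, covariates and tables, and each library left out.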

Additional observations from a re-analysis of the deposited data

Results flagged for a closer look

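In 5 of 46 groups of 4 libraries checked, 1 library stood far from the others by Dixon's criterion at 95%, which chance exceeds in about 1 of 20 groups. Con+Veh replicate 2, one of the libraries whose name ends in RIP, held mt-Co3 at 970.0 CPM against 267 to 373 CPM in the other Con+Veh libraries, and its ratio of complex IV to complex I gene counts was 0.805 against 0.527 to 0.569. Con+Veh replicate 1 had 30 counts on mt-Tm against 8 to 11. STZ-HFD replicate 1 had 200 counts on mt-Tm against 7 to 9, and its tRNA genes held 0.003 counts per 100 counts outside rRNA against 0.000415 to 0.000511. The share of mt-Nd2 in the mitochondrial protein gene counts moved in opposite directions in the 2 models, with a median of 4.11% in db/db against 4.63% in db/+ and of 7.63% in STZ-HFD against 5.64% in Con+Veh. Neither pair of groups overlapped, and the difference between the models in this share was not tested.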

How the results depend on the processing

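Of the values that answer a comparison, 552 alternative results stayed within the spread or on their side of the threshold, 76 moved and 1 passed a threshold. Of the remaining values, those of single genes among them, 1659 stayed, 158 moved, 8 passed a threshold and 11 no longer passed one. The cause was not tested. Values near 0 changed sign within that spread. The STZ-HFD median of the mitochondrial genes was above 0 in 14 of 17 settings and in 13 of 14 fits with a library left out (lowest -0.10), the protein gene share difference ran from -0.28 to 0.52 and the rRNA share difference from -0.62 to 0.17 with single libraries left out. Calls over all genes also changed by setting. In db/db edgeR and the adipocyte covariate called 0 genes in all, and voom without quality weights called 7 higher and 2 lower. In STZ-HFD edgeR called 6 and 23, no quality weights 3 and 16, the muscle covariate 17 and 157, and gene totals from transcripts gave 30 and 26 calls. Of the mitochondrial genes, none was called in the reported fit, and in db/db 1 was called higher with each model fitted alone (mt-Co2), 1 with the replicate block (mt-Co2, adjusted p = 0.0345 by limma) and 2 with the muscle covariate. In STZ-HFD the replicate block called 1 (mt-Nd6, adjusted p = 0.0414 by limma), and leaving out single libraries gave 0 to 2. The libraries showed no pairing by replicate number. The mean correlation of same-numbered libraries was -0.0797 in the db cohort and -0.108 in the other, against 0.0401 and 0.0367 for other pairs. So few pairs cannot settle whether mice were paired. The block moved the calls over all genes in db/db from 208 higher and 73 lower to 572 and 394, and in STZ-HFD from 220 and 221 to 222 and 377. No paired test of the rRNA ratio was run. That ratio differed by 0.24 to 0.53 in STZ-HFD with single libraries left out. The 1 machinery gene called higher in STZ-HFD became 0 with edgeR, DESeq2, no quality weights, no low-count filter, the muscle covariate, the transcript table, and without STZ-HFD replicate 1 and both RIP libraries (a set chosen after seeing the data), and 0 to 1 with single libraries left out. In db/db the block called 2 machinery genes higher and the muscle covariate 1 lower, and the list median of 0.18 was 0.11 with edgeR, 0.26 with no filter and 0.045 to 0.23 with single libraries left out. The 3 nuclear subunits called higher in db/db became 0 with edgeR, without quality weights and with the adipocyte covariate, 5 with RLE size factors, 14 with each model alone, 15 with the block, 6 with mitochondrial genes left out of the library totals, 18 with the muscle covariate, 8 without the RIP libraries, 6 without those and STZ-HFD replicate 1, and 0 to 10 with single libraries left out. Their median of 0.27 was 0.78 with the muscle covariate and -0.19 with the adipocyte covariate. The 14 called higher in STZ-HFD became 0 with edgeR, without quality weights, with the muscle covariate, with the transcript table and without STZ-HFD replicate 1 and the RIP libraries, 1 with no filter, with the adipocyte covariate and without the RIP libraries, 4 with filterByExpr, 5 with DESeq2, 6 with each model alone, 23 with the block, and 0 to 22 with single libraries left out. The 1 called lower there, Cox4i2, became 0 in those settings, the block apart, and 0 to 2 with single libraries left out. Excluding genes within 20 kb of CT010467.1 from the denominator changed nothing, as no other gene lies there. mt-Nd3 rests on 11 to 77 counts per library, and tRNA shares have counting intervals of up to 37% of their value.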
